A study of Mus musculus with 12 samples.

Results

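The enzymes described here build cholesterol inside the cell, and their RNA was followed in epithelium of the mouse small intestine. The set was named by gene as Hmgcs1, Idi1, Fdps, Fdft1, Sqle, Lss, Cyp51 and Dhcr7. Of these 8 enzymes 7 had a row in the tables, out of 19012 gene symbols in all, and Hmgcs1 was not analysed here. Where a symbol had several transcripts the one with the longest exons was kept. Idi1 was near 0 in every library, so most of the results concern 6 enzymes.

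Poly(A) RNA was sequenced in 12 libraries from mouse. Organoids, which are epithelial cultures grown from intestine, had been in culture for 12 weeks and gave 1 library each from duodenum, jejunum and ileum. Freshly isolated villi, the finger-like folds that carry mature enterocytes, also gave 1 library per origin. Freshly isolated crypts, the pits that hold stem and Paneth cells, gave 2 libraries per origin, numbered 1 and 2. No strain, age, genotype or treatment is given in the sources used here, nor whether libraries came from separate animals, so p-values measure only the spread between these libraries. The design allows organoids to be set against the tissue they came from, villi against crypts, and distal against proximal origins.

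Cholesterol is made from acetyl-CoA through mevalonate, isoprenoid units, squalene and lanosterol. Transcription of nearly the whole pathway is driven by SREBP-2, encoded by Srebf2, a membrane-bound factor that SCAP escorts to the Golgi for cleavage when sterols are low and that INSIG proteins hold back when sterols are high. The small intestine both makes cholesterol and absorbs it from food and bile, through NPC1L1 at the enterocyte surface, and returns sterols to the lumen through ABCG5 and ABCG8.

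The implied depth was 5268480 to 18591819 reads per library, and 44.3% to 75.8% of these reads lay in annotated genes. The lowest shares, 44.3% to 52.3%, were those of the crypt libraries numbered 1. Enterocyte and Paneth cell markers set villi apart from organoids and crypts. The 10 enterocyte markers summed to 2350 to 4630 RPKM in organoids, 50700 to 100000 RPKM in villi and 797 to 24200 RPKM in crypts. Paneth cell markers, of which 9 were matched, summed to 43300 to 96500 RPKM in organoids, 229 to 2510 RPKM in villi and 6890 to 142000 RPKM in crypts. RPKM is reads per kilobase of exon, scaled to a fixed number of reads per library, and it allows levels to be compared between genes. The crypt libraries of each origin stood apart from one another: those numbered 2 held more enterocyte marker RNA and less Paneth cell marker RNA than those numbered 1, with the values given beside the crypt results. Tissue comparisons that rest on crypts are therefore given with both. For the enzymes described here, each number alone is also given where that changes a call. Calls of other sterol genes and of markers are given only against both numbers together, and not against each alone.

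Promoters of 3 of the 6 enzymes that followed a single order along the villi are shown first. RefSeq windows of GRCm38.p6, from 250 bases before to 50 after a transcription start, were found for Idi1, Cyp51, Lss and Dhcr7, the last with 3 starts, and none was found for Fdps, Fdft1 and Sqle. Capitals mark the letters of CCAAT, bound by NF-Y, and of GGGCGG, a GC box, on either strand, and sequences run 5′ to 3′ on the strand of the gene. The windows below are chr5:4104648-4104947 on the minus strand for Cyp51, chr10:76531355-76531654 on the plus strand for Lss, and chr7:143822917-143823216 on the plus strand for the first listed start of Dhcr7.
Cyp51: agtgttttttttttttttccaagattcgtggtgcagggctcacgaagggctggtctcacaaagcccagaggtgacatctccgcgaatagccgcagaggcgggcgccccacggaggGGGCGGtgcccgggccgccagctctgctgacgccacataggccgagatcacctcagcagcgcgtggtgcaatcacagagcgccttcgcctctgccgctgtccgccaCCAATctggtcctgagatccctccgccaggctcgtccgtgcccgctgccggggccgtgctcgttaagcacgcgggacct
Lss: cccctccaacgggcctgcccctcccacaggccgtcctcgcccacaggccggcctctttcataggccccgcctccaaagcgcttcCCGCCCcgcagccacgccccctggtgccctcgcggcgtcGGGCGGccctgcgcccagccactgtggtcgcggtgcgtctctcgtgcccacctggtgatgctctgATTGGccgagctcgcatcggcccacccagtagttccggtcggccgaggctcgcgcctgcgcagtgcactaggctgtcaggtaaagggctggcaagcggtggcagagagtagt
Dhcr7: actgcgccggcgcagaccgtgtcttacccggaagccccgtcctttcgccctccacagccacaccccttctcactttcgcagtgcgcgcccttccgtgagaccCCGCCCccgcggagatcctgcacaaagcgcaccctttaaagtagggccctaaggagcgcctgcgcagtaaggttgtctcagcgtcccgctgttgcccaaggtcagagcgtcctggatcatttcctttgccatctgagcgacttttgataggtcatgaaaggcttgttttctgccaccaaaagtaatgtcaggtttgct
CCAAT occurred in 4 of the 6 windows, against 37.4% of 32851 RefSeq promoter windows, and GGGCGG in 5 of 6, against 35.7%. The sterol regulatory element core TCACNCCAC, searched on both strands, was in 0 of 6 windows and in 1.24% of all windows. At so low a share 0 of 6 does not set these windows apart, and variants of the core were not searched. No match overlapped another, and 2 of the Dhcr7 windows share bases. These matches describe letters within the windows and not binding.

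The level of each enzyme in each library was taken in pathway order. Idi1, which interconverts the 2 isoprenoid building blocks, had 0.0374, 0.435 and 0.44 RPKM in organoids of duodenum, jejunum and ileum, 0.0309, 0 and 0.0334 RPKM in villi, and at most 0.172 RPKM in crypts. That is 0 to 20 reads per library, and Idi1 was too low to be tested between tissues. Fdps, which makes farnesyl diphosphate, had 55.5, 34.6 and 38.1 RPKM in organoids, 3.75, 6.51 and 25.3 RPKM in villi, and 5.81 to 25.1 RPKM in crypts with a median of 8.86. Every organoid library lay above every villus and crypt library.

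Fdft1, the squalene synthase, had 65.7, 41.1 and 53.8 RPKM in organoids, 3.52, 8.81 and 34.6 RPKM in villi, and 9.68 to 42.0 RPKM in crypts with a median of 14.7. Sqle, which adds the oxygen that precedes ring closure and is a rate-limiting step, had 13.6, 13.5 and 10.7 RPKM in organoids, 1.14, 4.46 and 31.8 RPKM in villi, and 3.38 to 28.1 RPKM in crypts with a median of 9.3. The highest library of Sqle was ileal villi and its lowest duodenal villi, with all 3 organoid libraries between them. Lss, which closes the rings to give lanosterol, was the lowest of the 6 at 1.88, 3.88 and 2.13 RPKM in organoids, 0.517, 2.01 and 5.72 RPKM in villi, and 1.16 to 13.5 RPKM in crypts with a median of 4.7.

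Cyp51, the lanosterol demethylase, had 19.4, 26.9 and 21.1 RPKM in organoids, 2.26, 6.1 and 29.8 RPKM in villi, and 6.96 to 28.8 RPKM in crypts with a median of 11.1. Dhcr7, the reductase of the last step on the branch through 7-dehydrocholesterol, had 12.2, 8.88 and 9.71 RPKM in organoids, 11.6, 18.9 and 43.8 RPKM in villi, and 16.5 to 57.6 RPKM in crypts with a median of 32.5. Organoids lay below every crypt library for Dhcr7, the opposite of Fdps. The spread within a tissue differed between tissues for every enzyme: the highest organoid library was 1.27 times (Sqle) to 2.07 times (Lss) the lowest, whereas the highest villus library was 3.79 times (Dhcr7) to 27.9 times (Sqle) the lowest.

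**Figure D1:**
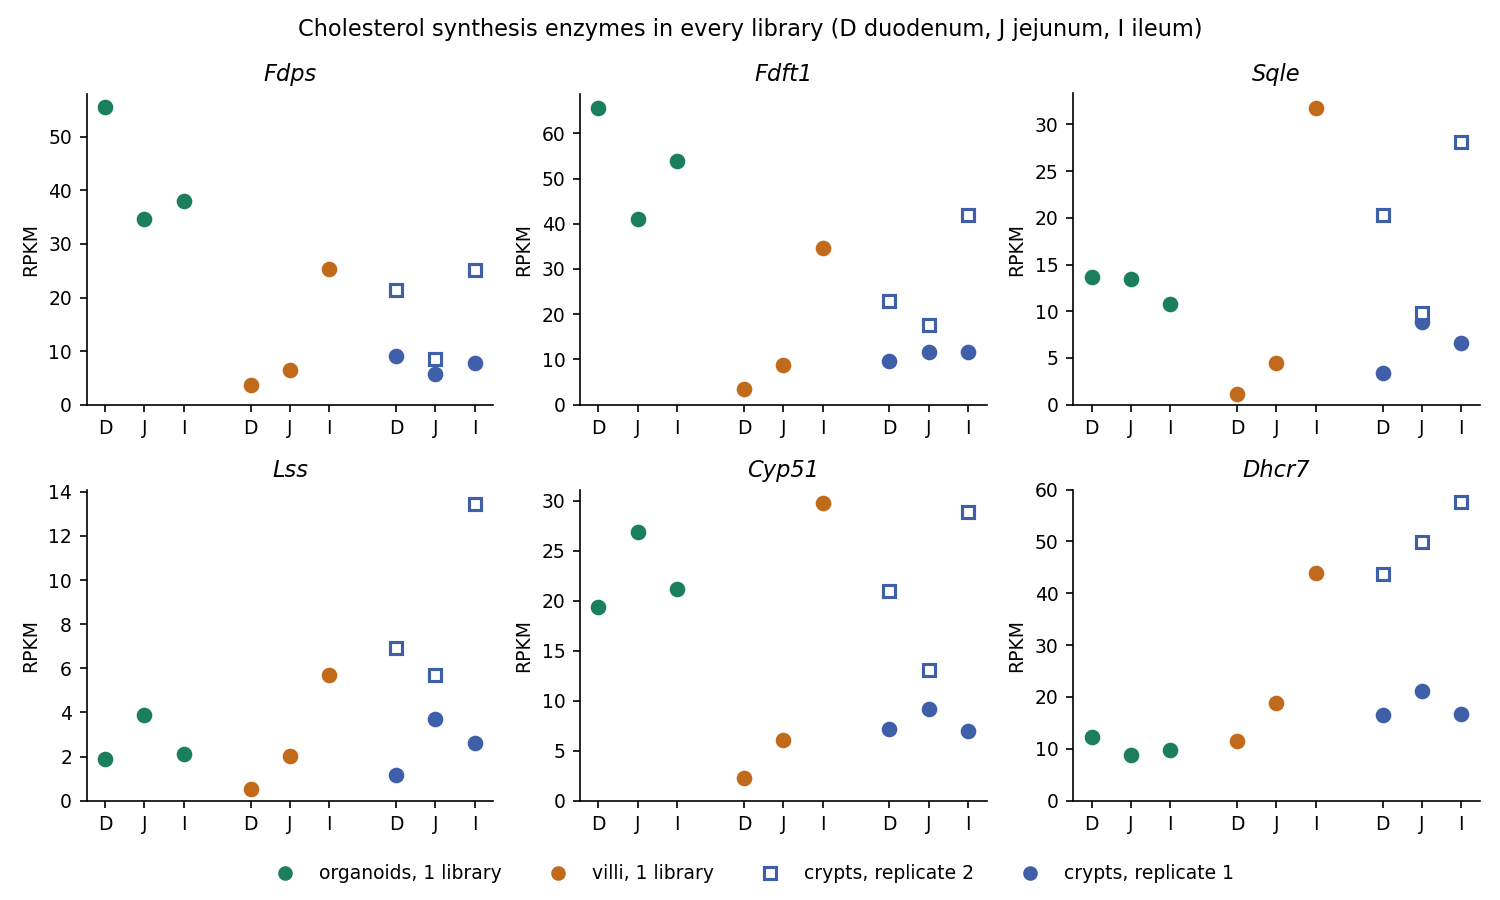
RPKM of 6 cholesterol synthesis enzymes in each of the 12 libraries, with a linear axis from 0 per gene; points are single libraries of organoids, villi and crypts by origin, and open squares are the crypt libraries numbered 2. Villi rise from duodenum to ileum in every panel, and organoids lie above all other libraries for Fdps and below all crypts for Dhcr7.

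In organoids 2 of the 6 enzymes were higher than in crypts and 1 was lower. Fdps was up on the log2 scale by 1.81 (SE 0.47), at an adjusted p from limma of 0.00724, with a mean of 42.7 ± 11.2 RPKM in organoids (SD, n = 3) and 13.0 ± 8.13 RPKM in crypts (SD, n = 6). Fdft1 rose by 1.58 (SE 0.49, limma adjusted p = 0.0186), with means of 53.5 ± 12.3 RPKM in organoids and 19.3 ± 12.2 RPKM in crypts, where the lowest organoid library was just below the highest crypt library. Dhcr7 fell by 1.48 on the log2 scale (SE 0.46, limma adjusted p = 0.0186), with means of 10.3 ± 1.74 RPKM in organoids and 34.3 ± 18.3 RPKM in crypts.

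Fold changes throughout are on the scale of log2(RPKM + 1), which understates the change of low genes such as Lss. Sqle, Lss and Cyp51 did not pass, with log2 fold changes of 0.25, -0.64 and 0.78 and limma adjusted p-values of 0.769, 0.289 and 0.251. Of 11825 genes tested, 47.4% passed in this comparison, 23.3% higher and 24.0% lower in organoids, so that 3 of 6 is near the share of all genes. Markers of other cells differed as well. Of 5 goblet cell markers 3 were higher in organoids, with sums of 14900 to 34200 RPKM in organoids and 3960 to 16700 RPKM in crypts, and of 6 enteroendocrine markers 4 were higher, with sums of 719 to 2290 RPKM in organoids and 93.4 to 303 RPKM in crypts, none of either list at 0. Of 10 enterocyte markers 1 was higher and 3 were lower, and of 9 Paneth cell markers 1 was higher. Their part in the differences of the 6 enzymes was not tested. Libraries without overlap were those of Fdps among 16.3% of all genes with organoids above every crypt library, and those of Dhcr7 among 21.9% below. In bulk libraries fewer cells of a type and less RNA per cell cannot be told apart, and neither can the tissue and whatever preparation its libraries shared.

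Some of these calls were lost when 1 library was left out. Without the duodenal organoids the log2 fold change of Fdps was 1.53 (limma adjusted p = 0.0576) and that of Fdft1 was 1.14 (0.142). Without the jejunal organoids Fdft1 had an adjusted p of 0.0618 and Dhcr7 of 0.0867, and without the ileal organoids Dhcr7 had a log2 fold change of -1.26 (0.114). Against the crypt libraries numbered 2 alone Fdft1 did not pass (log2 fold change 1.0, limma adjusted p = 0.0858) and Lss fell by 1.38 (0.0133). Against those numbered 1 alone Dhcr7 did not pass (-0.76, 0.085), and Cyp51 was higher by 1.41 (0.0321).

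Among 12 other enzymes of the pathway both directions were seen in organoids as well. Here 4 rose and 1 fell of 12, with a median log2 fold change of 0.61, against a median of 0.517 over the 6 enzymes and 0.00319 over all genes. Those that rose were Ggps1, which makes geranylgeranyl diphosphate, by 1.15 (limma adjusted p = 0.00226), Sc4mol, a sterol C4-demethylating oxidase now called Msmo1, by 1.70 (0.0208), Ebp, a sterol isomerase, by 0.82 (0.0376), and Sc5d, a sterol desaturase, by 1.5 (0.0187). Mvk, the mevalonate kinase, fell by 1.08 (0.0303). Nsdhl, Tm7sf2, Mvd, Pmvk, Acat2, Lbr and Hsd17b7 ranged between -0.48 and 1.0 without passing. With the crypt number as a block Tm7sf2 and Nsdhl also passed as higher (limma adjusted p = 0.0133 and 0.0357). That made 6 higher and 1 lower of 12. Over all genes the block also raised the number at an unadjusted limma p under 0.05, from 6458 to 7207 of 11825.

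Genes that control or share sterol traffic also differed between organoids and crypts. Of 7 SREBP regulators 3 rose and 3 fell: Scap fell by 1.76 (limma adjusted p = 0.000194), Srebf1 by 1.45 (0.000423) and Srebf2 by 1.15 (0.0238), while Insig2 rose by 1.35 (0.00338). With the block Mbtps1, a protease of SREBP cleavage, passed as lower too (-0.63, limma adjusted p = 0.0404). Srebf2 averaged 7.63 RPKM in organoids and 18.5 RPKM in crypts. Of 2 genes of sterol uptake and transport Stard4, a sterol carrier, rose by 1.06 (0.0115). The other, the uptake gene Npc1l1, had a log2 fold change of -1.02 (0.177), which passed with the block (limma adjusted p = 0.00607). The esterifying enzymes moved apart, Soat1 higher by 1.72 (0.00182) and Soat2, the enterocyte form, lower by 1.98 (0.00094). Of 7 efflux and LXR genes 3 fell, among them the LXR genes Nr1h2 and Nr1h3 by 1.49 (0.00016) and 1.47 (0.00425).

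Villi did not differ from crypts past the threshold for any of the 6 enzymes. All 6 had negative log2 fold changes, between -0.82 (Lss, SE 0.48, limma adjusted p = 0.17) and -0.32 (Fdps, SE 0.47, 0.583), beside a median of -0.19 over all genes. Of all genes 52.8% passed, 20.3% higher and 32.5% lower in villi. The villus and crypt libraries overlapped for every one of the 6. With the crypt number as a block Lss passed (limma adjusted p = 0.0446), beside 59.5% of all genes. Against the crypt libraries numbered 2 alone Lss fell by 1.55 (limma adjusted p = 0.00676), Fdft1 by 1.20 (0.0413) and Dhcr7 by 1.19 (0.0114). Against those numbered 1 alone 0 of 6 passed, with log2 fold changes of -0.08 for Lss, -0.04 for Fdft1 and 0.24 for Dhcr7. The median over all genes was -0.26 against those numbered 2 and -0.13 against those numbered 1. Shares of all genes that passed against each number alone are not given here, so these calls do not set the enzymes apart. Without the duodenal villi Sqle, Fdps, Fdft1 and Cyp51 had log2 fold changes of 0.17, 0.36, 0.06 and 0.09, so their sign turned. Without the ileal villi Cyp51 fell by 1.44 (0.0437).

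Around the 6 enzymes, the uptake gene Npc1l1, the sterol carrier Stard4 and most genes of sterol efflux rose in villi. Of the esterifying enzymes 1 rose and the other fell, and a few synthesis enzymes changed. Of the 12 other enzymes 1 rose and 2 fell, Sc5d by 1.81 (limma adjusted p = 0.00586), Acat2, the thiolase at the head of the pathway, by 1.83 on the log2 scale (0.000177) and Lbr, a sterol reductase of the nuclear membrane, by 2.25 (0.000119). With the block 2 rose and 4 fell, with Tm7sf2 added to those that rose and Mvk and Mvd among those that fell. Of 7 efflux and LXR genes 6 rose, among them Abcg8 by 3.01 (0.000116) and Abcg5 by 2.70 (0.00077). Of 2 uptake and transport genes both rose, Npc1l1 by 4.14 (0.000118) and Stard4 by 0.94 (0.0183). Npc1l1 had 239 to 385 RPKM in villi and 4.47 to 44.4 RPKM in crypts. Of the 2 esterifying enzymes Soat2 rose by 2.04 (0.000598) and Soat1 fell by 1.38 (0.00593). Of 7 SREBP regulators 3 rose, Insig2 by 2.04 (0.000161), Srebf1 by 1.17 (0.00137) and Insig1 by 0.84 (0.0497), and with the block Mbtps2, a protease of SREBP cleavage, passed as lower (-0.54, limma adjusted p = 0.0467). In the same comparison 10 of 10 enterocyte markers, 5 of 6 leukocyte markers and 6 of 6 smooth muscle and stroma markers were higher in villi, and 9 of 9 Paneth cell, 4 of 5 stem cell and 6 of 6 cycling cell markers were lower. Their part in the differences of sterol genes was not tested.

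**Figure D2:**
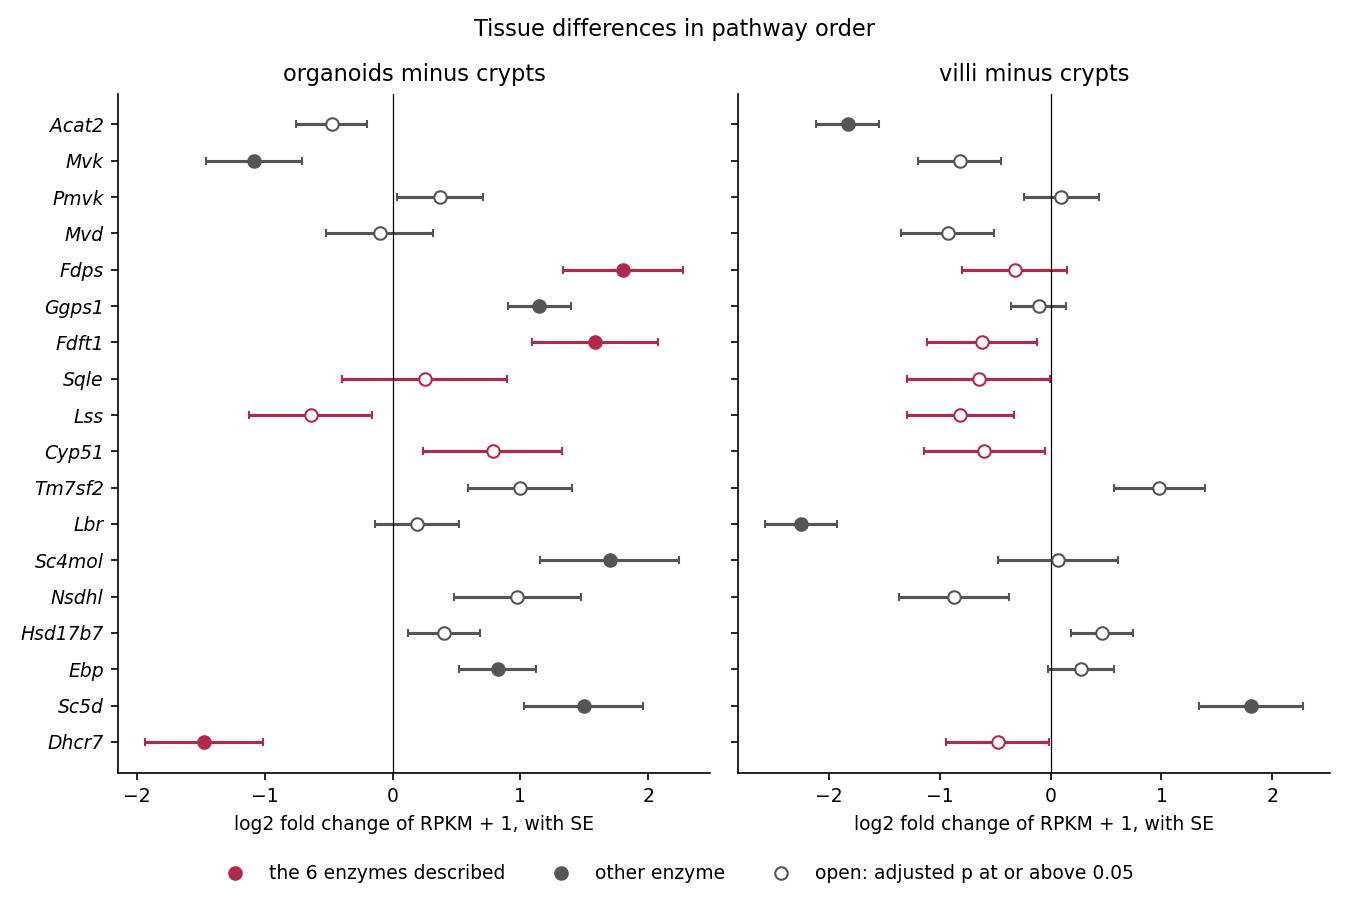
Log2 fold change of RPKM + 1 with its standard error for 18 cholesterol synthesis enzymes in pathway order, organoids against crypts on the left and villi against crypts on the right; filled points passed a limma adjusted p of 0.05. Fdps and Fdft1 lie above 0 and Dhcr7 below 0 in organoids, and the 6 enzymes described (red) are all open points in villi.

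Set against villi, organoids were higher in the same pair of enzymes. Fdps rose by 2.13 (SE 0.54, limma adjusted p = 0.00421) and Fdft1 by 2.20 (SE 0.57, 0.00456), and for both every organoid library lay above every villus library, as in 41.2% of all genes. Of all genes 61.6% passed, 36.0% higher and 25.6% lower in organoids. With the block Cyp51 (log2 fold change 1.38) and Dhcr7 (-1.0) passed as well, with limma adjusted p-values of 0.0248 and 0.0157, against 0.0714 and 0.12 without it, beside 67.2% of all genes. Without the ileal villi Sqle also rose, by 1.89 (0.0359), and Cyp51 by 2.22 (0.00699). This comparison shares its organoid and villus libraries with those above.

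Along the length of the intestine the clearest order was in villi, where all 6 enzymes were lowest in duodenum, intermediate in jejunum and highest in ileum. Sqle was 27.9 times as high in ileal as in duodenal villi (95% counting interval 20.4 to 39.1), from 1058 and 41 reads. Cyp51 was 13.2 times as high (11 to 15.9), Lss 11.1 times (7.06 to 18.2), Fdft1 9.81 times (8.19 to 11.8), Fdps 6.75 times (5.13 to 9.02) and Dhcr7 3.79 times (3.4 to 4.23). These are single libraries, so the intervals cover counting error only and there is no replicate check.

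The rising order was found in 41.8% of all genes in villi and a difference of at least 2-fold on the log2 scale in 8.39% of them, against 6 of 6 enzymes for both. All 6 kept the rising order when rescaled by TMM factors or to reads in annotated genes. The median log2 difference between ileal and duodenal villi was 2.72 over the 6 enzymes and 0.22 over all genes. Values rescaled by TMM factors put the median of all genes at 0.03 and left all 6 enzymes at least 2-fold higher, with log2 differences of 1.54 (Dhcr7) to 3.78 (Sqle), against 4.98% of all genes. Among the 12 other synthesis enzymes 10 had the rising order and 8 were at least 2-fold higher, or 6 with TMM factors. Mvd, the mevalonate diphosphate decarboxylase, had 2.75 RPKM in duodenum and 29.0 RPKM in ileum, with jejunum between them, and Mvk and Nsdhl were 6.24 times and 6.11 times as high in ileum as in duodenum. Lbr and Sc5d were the 2 without the order.

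Other genes of sterol homeostasis split in the villi. Srebf2 had 7.1, 16.7 and 33.2 RPKM in duodenum, jejunum and ileum, and Stard4 had 16.0, 39.4 and 42.7 RPKM. Scd2, a fatty acid desaturase, had 0.758, 4.57 and 24.5 RPKM. In contrast Abcg5 had 191, 201 and 161 RPKM, Soat2 86.9, 100 and 83.2 RPKM, and Srebf1 32.7, 45.0 and 25 RPKM, none of them in rising order. Npc1l1, the uptake gene, had 239, 385 and 341 RPKM, also without that order. The order was found in 3 of 7 SREBP regulators, 1 of 2 uptake and transport genes and 3 of 7 efflux and LXR genes. It was found in 0 of 2 esterifying enzymes and 5 of 7 genes of fatty acid synthesis, against 41.8% of all genes. Markers of other cells moved along the villi too. The summed RPKM of 9 Paneth cell markers was 229, 1170 and 2510, of 5 stem cell markers 9.73, 24.6 and 32.9, of 6 cycling cell markers 19.9, 26.5 and 29.1, of 5 goblet cell markers 5210, 5000 and 10600, and of 10 enterocyte markers 100000, 55200 and 50700. Most of the enterocyte sum was Apoa1, with 43200, 25300 and 30400 RPKM, and Apoa4, with 46900, 17200 and 2370 RPKM. Of the 10 enterocyte markers 3 were higher in ileum than in duodenum, among them Fabp2 with 4180, 7030 and 12600 RPKM. Leukocyte markers summed to 179, 157 and 260 RPKM and smooth muscle and stroma markers to 24.9, 43.2 and 67.8 RPKM, with 0 markers of these lists listed at 0 in villi. The leukocyte markers did not share a direction: Cd74 had 88.2, 89.9 and 157 RPKM, while the T cell markers Cd3e and Cd8a had 17.5, 11.4 and 6.09 RPKM and 11.5, 7.06 and 2.45 RPKM. Their part in the villus order was not tested.

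**Figure D3:**
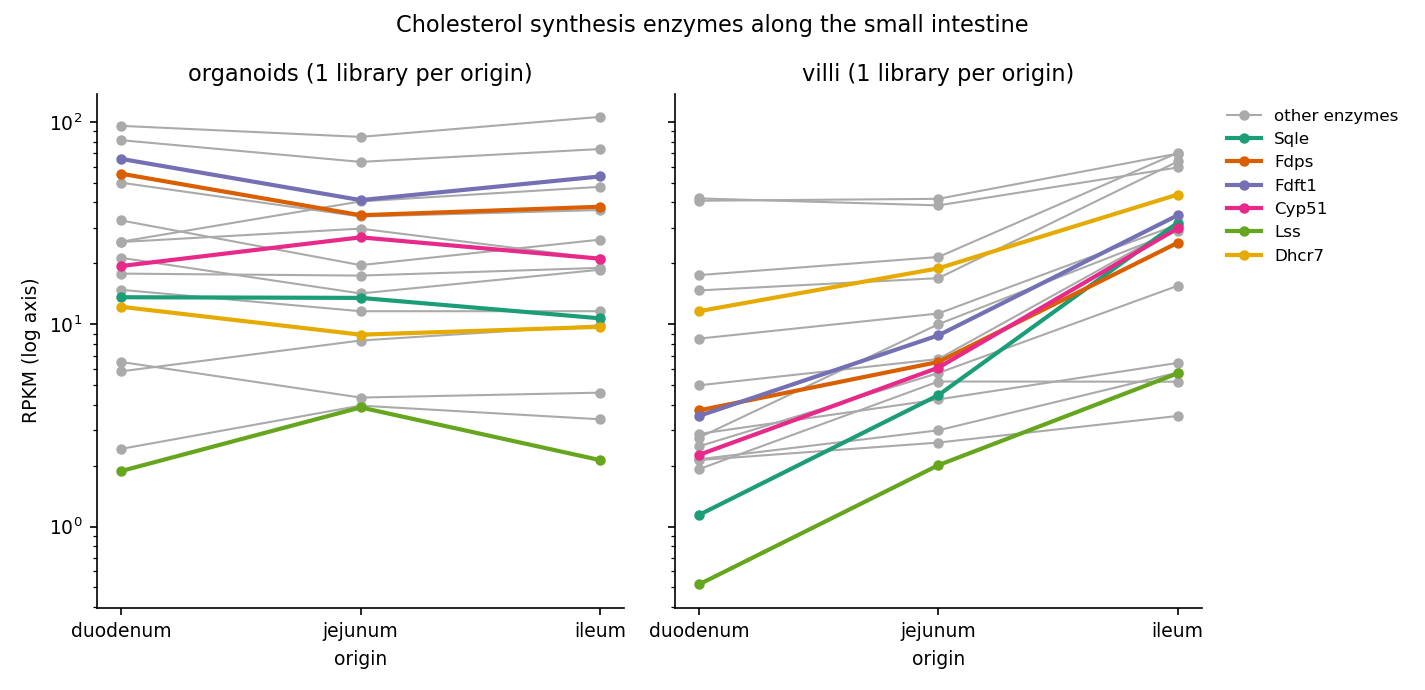
RPKM on a log axis by origin, in organoids on the left and villi on the right, with 1 library per point; coloured lines are 6 cholesterol synthesis enzymes and grey lines 12 others. All coloured lines climb from duodenum to ileum in villi, by 3.79 to 27.9 times, and none has that order in organoids.

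Organoids did not carry this order. The rising order was found in 0 of 6 enzymes, against 14.1% of all genes, and a 2-fold rise in 0 of 6, against 2.45%. The ratio of ileal to duodenal organoids ranged between 0.686 for Fdps (95% counting interval 0.616 to 0.764) and 1.14 for Lss (0.814 to 1.59), with a median log2 difference of -0.29. In crypts the order held for 1 of 6 enzymes in the libraries numbered 2 (Dhcr7), against 14.7% of all genes. It held for 1 of 6 in those numbered 1 (Fdft1), against 26.6%. As deposited, 0 of 6 reached 2-fold in either, against 4.03% and 5.44% of all genes. With TMM factors 2 of 6 did in the libraries numbered 2, against 5.4%, and 0 of 6 in those numbered 1, against 3.72%. In the libraries numbered 2 all 6 were higher in ileum than in duodenum, as were 4253 of 11825 genes. Their median log2 difference was 0.45, beside -0.17 over all genes. In those numbered 1, 4 of 6 were higher, as were 7398 of 11825 genes, with medians of 0.13 and 0.15.

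The tests of origin gave no call among the 6. Only crypts had 2 libraries per origin, and in the fit over all tissues the tissues stood in as replicates of an origin. That additive fit counts a regional difference limited to 1 tissue partly as spread. Averaged over the 3 tissues, all 6 were higher in ileum than in duodenum, by log2 fold changes of 0.48 (Dhcr7) to 1.21 (Sqle), with limma adjusted p-values of 0.658 to 1, while 0.609% of all genes passed. These values rested largely on the villi: without the ileal villi they were 0.47 for Sqle, 0.31 for Cyp51 and 0.11 for Dhcr7, and without the duodenal villi 0.43 for Fdft1 and -0.03 for Fdps. With the block 2.55% of genes passed and the lowest adjusted p of the 6 was 0.178, that of Lss. Between jejunum and duodenum 0 of 11825 genes passed in limma, with 343 at an unadjusted p under 0.05 and 0 by limma-voom, and between ileum and jejunum 0 of 6 passed, beside 0.0423% of genes. In crypts alone 0 of 6 passed between ileum and duodenum, beside 0.0360% of genes, with log2 fold changes of 0.01 (Fdps) to 0.80 (Lss).

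Whether the ileum-duodenum difference of villi exceeds that of crypts was tested with the single villus libraries assumed to vary like the crypt libraries. The difference of differences was 3.32 for Sqle (SE 1.64), 3.04 for Cyp51 (SE 1.36), 2.46 for Fdps, 2.43 for Fdft1, 1.64 for Dhcr7 and 1.34 for Lss, with unadjusted p-values of 0.0698 to 0.414 and limma adjusted p-values of 1. With the block the adjusted p-values were 0.617 to 0.861 and the unadjusted ones 0.00883 to 0.152. Of 12740 genes 0 passed in limma with or without the block and 0 by limma-voom, with 463 at an unadjusted p under 0.05. The same test for organoids against crypts gave values of -0.93 (Sqle) to -0.08 (Cyp51) for the 6, and 0 genes passed, with 333 at an unadjusted p under 0.05 and 0 by limma-voom.

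All 6 enzymes were higher in the crypt library numbered 2 than in that numbered 1 at each of the 3 origins, which held for 35.1% of all genes. Sqle had 20.3, 9.79 and 28.1 RPKM in the libraries numbered 2 of duodenum, jejunum and ileum, against 3.38, 8.8 and 6.55 RPKM in those numbered 1. Dhcr7 had 43.8, 50.0 and 57.6 RPKM, against 16.5, 21.1 and 16.6 RPKM. Lss had 6.91, 5.71 and 13.5 RPKM, against 1.16, 3.7 and 2.59 RPKM. The median log2 difference over the 6 was 1.39, 0.50 and 1.83 in duodenum, jejunum and ileum, beside 0.46, 0 and 0.09 over all genes. Rescaled to reads in annotated genes, 5 of the 6 were higher at all origins, against 18.4% of all genes, and jejunal Sqle was the exception at -0.14. With TMM factors all 6 were, against 25.5%.

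Other genes marked the same crypt libraries. All 10 enterocyte markers were higher in the libraries numbered 2 at each origin, by median log2 differences of 3.35, 3.39 and 3.12, and all 9 Paneth cell markers were lower, by medians of -1.98, -0.99 and -1.61. The summed enterocyte markers were 8530, 24200 and 12100 RPKM in the libraries numbered 2 and 797, 2000 and 982 RPKM in those numbered 1. Stem cell markers, 5 in number, summed to 390, 83.4 and 82.6 RPKM in the libraries numbered 2 and to 425, 1160 and 1050 RPKM in those numbered 1, and Olfm4 alone had 37.5 and 33.4 RPKM in jejunum and ileum numbered 2 and 1063 and 941 RPKM in those numbered 1. Leukocyte markers, 8 in number, summed to 4.05, 7.35 and 6.53 RPKM in the libraries numbered 2 and to 45.1, 305 and 103 RPKM in those numbered 1. In a crypt library 0 to 4 of these 8 were at 0, and only Cd74 and H2-Aa passed the filter for crypts. Of 6 cycling cell markers 6, 0 and 3 were higher in the libraries numbered 2 of duodenum, jejunum and ileum. The part of other cell types in the differences between crypt libraries was not tested.

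**Figure D4:**
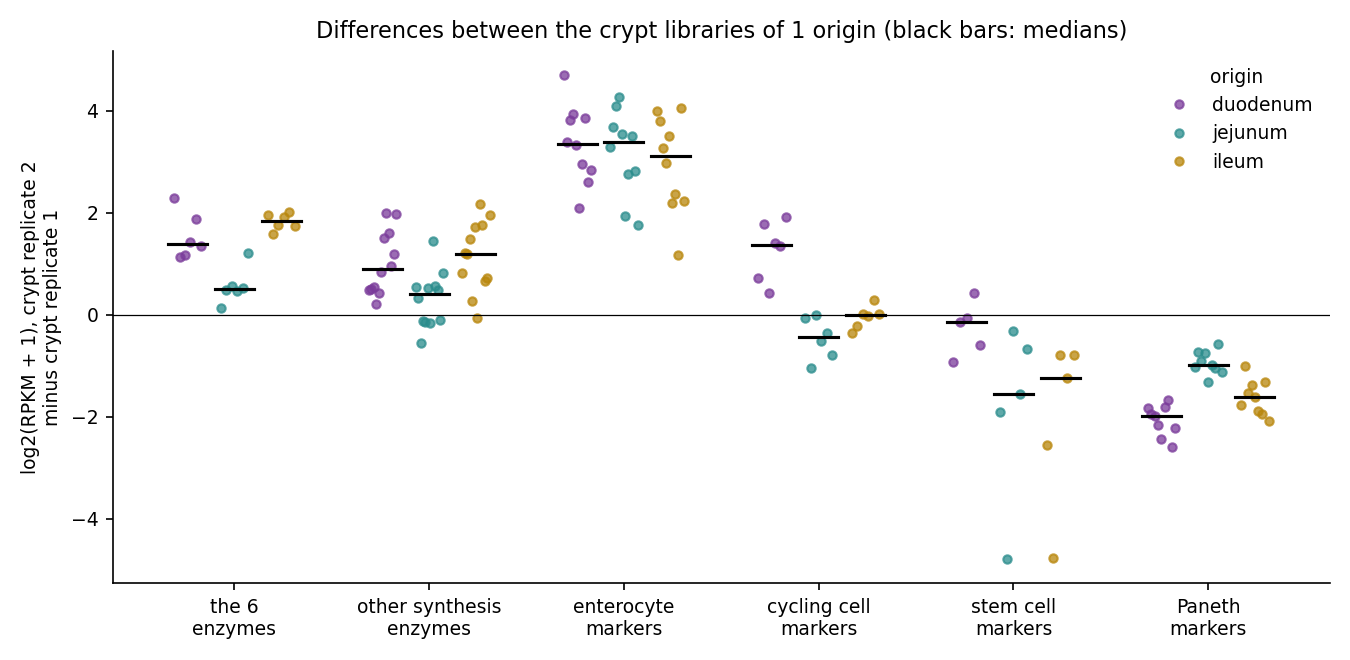
Difference in log2(RPKM + 1) between the crypt library numbered 2 and that numbered 1 of the same origin, by gene list; points are genes and black bars medians. As deposited, the 6 enzymes lie above 0 at all 3 origins, with medians of 1.39, 0.50 and 1.83, though jejunal Sqle is at -0.14 when rescaled to reads in annotated genes; enterocyte markers lie higher and Paneth cell markers lie below 0.

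The 6 enzymes fell into overlapping patterns across the 12 libraries. Pearson correlations of log2(RPKM + 1) over the 12 libraries, which share tissues, origins and crypt pairs, were 0.96 between Fdps and Fdft1 and 0.94 between Sqle and Cyp51. Lss and Dhcr7 correlated at 0.79 with each other, and Dhcr7 at -0.05 with Fdps and 0.08 with Fdft1. The mean of the 6 after each was standardised was lowest in duodenal villi (-1.67) and highest in the ileal crypt library numbered 2 (1.22) and ileal villi (0.94), with the 3 organoid libraries between 0.23 and 0.41. Among all other tested genes, those nearest to that mean included Scpep1, a serine carboxypeptidase (r = 0.967, 12 libraries), Qdpr, which regenerates tetrahydrobiopterin (0.941), Nsdhl (0.914), Mapre2, a microtubule-binding protein (0.885), 4930444A02Rik (0.885), 2210415F13Rik (0.877), Elovl1, which elongates very long fatty acids (0.874), Mvd (0.872) and Scd2 (0.868). Of these, Nsdhl and Mvd belong to the 12 other synthesis enzymes.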

How the data were processed

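Poly(A) RNA went into libraries of a SOLiD kit for total RNA, and 50-base reads came from a SOLiD 4 sequencer, per the labels' protocols. The submitters' processing notes name BWA and the mouse build mm9. Which BWA version and gene models were used, and whether strand was counted, the sources used here do not give. The authors deposited RPKM for every transcript, with 1 table for each library, per the file headers. Reads were recovered from RPKM and exon length, and at least 99.9671% of values came out whole within 0.02 of a read.

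A gene was tested if 3 or more libraries (2 for crypts, 1 for differences between tissues by origin) reached what 10 reads are worth in the library of median depth, and 15 reads were found in all. The test was run with limma 3.58.1 in R 4.3.3, on log2(RPKM + 1) with a trend of variance on mean, two-sided, with Benjamini-Hochberg adjustment across every gene that was tested and a threshold of 0.05. Tissues and origins were fitted additively over 12 libraries with 7 residual degrees of freedom, so that the 3 origins serve as replicates of organoids and villi; crypt origins were fitted over 6 libraries and differences by origin over 9 group means, with 3 residual degrees of freedom each. The steps were tested on simulated reads drawn independently for each library, without deviations shared by crypt libraries of equal number. That test therefore does not show how often false calls arise where libraries deviate together. A count-model test on recovered reads had been planned and was not used, because the unit is RPKM. Alternatives were other pseudocounts, filters, scalings and transcripts, crypts of 1 number alone, each library left out and, chosen after seeing the data, limma-voom on recovered reads.

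Crypt libraries share the numbers 1 and 2 across origins. Deviations of equal numbers correlated at 0.42 (duodenum and jejunum), 0.51 (duodenum and ileum) and 0.79 (jejunum and ileum) over 11123 genes. The numbers were therefore taken to pair the libraries in an alternative fit, called the block. The main fits, whose p-values are given first, leave this pairing out. The block is given where it changes a printed call of an enzyme or another sterol gene, and marker counts are without it. Ratios between single libraries have exact (Clopper-Pearson) 95% intervals of the read shares, which cover counting error only.

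The enzymes and gene lists were chosen with earlier results of these data known. Named are the 8 enzymes, the 12 other synthesis enzymes, 2 to 4 members of each other list by p-value or, for levels along the villi, by size chosen after their values were seen, and genes among the 10 nearest the mean pattern. A few genes of these lists are not reported here and are in none of the list counts. Coordinates of promoters are those of GRCm38.p6 and were not mixed with mm9.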

Additional observations from a re-analysis of the deposited data

Results flagged for a closer look

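For 4 of the 6 enzymes the ileum-duodenum difference pointed one way in organoids and the other way in villi, on the log2(RPKM + 1) scale. Sqle differed by -0.31 in organoids and 3.94 in villi, Fdps by -0.53 in organoids and 2.47 in villi, Fdft1 by -0.28 in organoids and 2.98 in villi, and Dhcr7 by -0.3 in organoids and 1.84 in villi. Of 11825 genes tested, 8365 were higher in ileum than in duodenum in villi and 6561 in organoids. Genes with opposite signs were not counted, so 4 of 6 does not set the enzymes apart from other genes. Each value comes from 1 library per origin, and the difference between organoids and villi was not tested. Cyp51 and Lss were positive in both, at 0.12 in organoids for each and at 3.24 and 2.15 in villi. No library of the 6 crypt libraries stood far enough from its neighbours to be listed for any of the 6 enzymes.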

How the results depend on the processing

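The main limits are 1 library per origin for organoids and villi, crypt libraries that differ between the numbers 1 and 2, and Idi1 values that rest on 20 reads or fewer per library. Of 684 log2 fold changes of single enzymes under the alternatives, 637 kept their direction and side of the threshold, 19 passed newly, 8 no longer passed and 20 changed sign. The cause of any change below was not tested.

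The calls of organoids against crypts for Fdps, Fdft1 and Dhcr7 held under all settings with all libraries, except that Fdft1 missed with no filter (limma adjusted p = 0.0502). Sqle had -0.01 when rescaled to reads in annotated genes and -0.48 against crypts numbered 2 alone, and Lss 0.09 against those numbered 1 alone. Against crypts numbered 1 alone villi had 0.08 for Sqle, 0.21 for Fdps, 0.03 for Cyp51 and 0.24 for Dhcr7. Organoids against villi gave Lss 0 with TMM factors and -0.1 with limma-voom. For villi against crypts the number of enzymes that passed was 1 with the block and 3 with crypts numbered 2 alone, against 0. For organoids against villi it was 4 with the block and with crypts of either number alone, against 2. It was 3 with no filter, TMM factors, limma-voom or scaling to annotated reads. With the block 59.5% of all genes passed for villi against crypts and 67.2% for organoids against villi, beside 52.8% and 61.6% without it. Shares of all genes under the other settings are not given here, so these counts alone do not set the enzymes apart from other genes. Idi1 had 0 for the villus-crypt difference by origin with limma-voom.

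Ileum against duodenum over all tissues gave 113 genes with a pseudocount of 0.1, 40 with 5, 17 with no filter, 302 with the replicate block, 139 with limma-voom, 153 with crypts numbered 2 alone and 113 with those numbered 1 alone, against 72. Jejunum against duodenum gave 8 with the block, 10 with crypts numbered 2 alone and 1 with those numbered 1 alone, against 0. Ileum against jejunum gave 9 with a pseudocount of 0.1, 0 with 5, 0 with no filter, 32 with the block and 2 with crypts numbered 2 alone, against 5. Ileal against duodenal crypts gave 1 with a pseudocount of 0.1, 0 with no filter, 37 with the block and 0 with limma-voom, against 4. The differences by origin gave 13 genes for organoids and 44 for villi with a pseudocount of 5, and 362 and 497 with no filter, against 0. None of the 6 enzymes passed in any of these comparisons between origins under any setting. The block changed no call of the 6 enzymes other than those given beside the results.

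Leaving out 1 library at a time, with a lone sample assumed to vary like the other groups, genes called ranged between 3563 (without the ileal organoids) and 6378 for organoids against crypts (1 to 3 enzymes), between 4606 and 6645 for villi against crypts (0 to 1) and between 6237 and 7756 for organoids against villi (2 to 4). The count ranged between 34 and 94 for ileum against duodenum over all tissues, 0 and 6 for jejunum against duodenum, 0 and 11 for ileum against jejunum and 0 and 6 in crypts. The log2 fold change ranged between -0.18 and 0.84 for Sqle in organoids against crypts, between -1.64 and 0.17 for Sqle, -0.96 and 0.36 for Fdps, -1.29 and 0.06 for Fdft1 and -1.44 and 0.09 for Cyp51 in villi against crypts, between -0.16 and 0.62 for Lss in organoids against villi, between -0.03 and 0.85 for Fdps in ileum against duodenum, and between -0.08 and 0.15 for Idi1 in the villus-crypt difference by origin. The count-model test planned for recovered reads was not run, because the deposited values are RPKM.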
